A study of Mus musculus with 6 samples.

Results

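The expression of 10 genes of the heat shock response was followed in mouse pancreatic macrophages after caerulein: the HSP70 genes Hspa1a, Hspa1b and Hspa8, the HSP110 gene Hsph1, the HSP90 gene Hsp90aa1, the HSP40 gene Dnajb1, the small heat shock protein gene Hspb1, the mitochondrial chaperonin genes Hspd1 and Hspe1, and the HSP70 co-chaperone gene Bag3. They were chosen by gene name, and all 10 were found among the 31617 genes of the table and among the 10000 genes with the highest mean, which are called expressed below. The libraries came from wild-type Balb/c mice on day 1, 3, 4, 5 or 7 after the first of 10 hourly intraperitoneal injections of caerulein at 100 mg/kg, as the design text gives the dose, and from mock mice. Caerulein is a cholecystokinin analogue that at high dose injures the acinar cells of the pancreas and gives acute pancreatitis. The mock mice were given saline per the design text and have the treatment "none" in the labels, and day 4 appears in the sample labels but not in the design text. Leukocytes were enriched with CD45.2 beads and macrophages were sorted as CD45+CD11b+F4/80+ cells. Each library was 1 pool of more than 3 mice and each day has 1 library, so no difference between days could be tested against the spread between pools, and no p-value is given for a day.

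Heat shock proteins are chaperones that bind unfolded or newly made proteins and help them fold, be held in solution or be degraded. When unfolded proteins accumulate, the transcription factor HSF1 is freed from chaperones, forms trimers and binds heat shock elements, inverted repeats of the triplet GAA, upstream of these genes. HSP70 works in a cycle with J-domain proteins such as the product of Dnajb1, which deliver clients and start ATP hydrolysis, and with exchange factors such as the products of Hsph1 and Bag3, which release ADP. In macrophages, chaperones also serve antigen handling and the folding of signalling kinases and receptors.

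The promoter windows of 4 of the genes are printed because their exact matches to heat shock element patterns differ in number and place. Elements that depart from the patterns given below were not sought. Each window runs from 250 bases before to 50 bases after a transcription start of RefSeq, build GRCm38.p6, and is written 5′ to 3′ on the strand of the gene. Capitals mark matches to the core GAANNTTC or TTCNNGAA or to the same cores extended by NNGAA or NNTTC in the alternating orientation; together these read both strands, and overlapping matches form 1 stretch. Hspa1a stands for the inducible HSP70 pair, chr17:34972107-34972406 on the minus strand. Hspe1 stands for the chaperonin pair, chr1:55087898-55088197 on the plus strand. Hspb1 is at chr5:135887669-135887968 on the plus strand, and Hsph1, its first window, at chr5:149636266-149636565 on the minus strand.
Hspa1a: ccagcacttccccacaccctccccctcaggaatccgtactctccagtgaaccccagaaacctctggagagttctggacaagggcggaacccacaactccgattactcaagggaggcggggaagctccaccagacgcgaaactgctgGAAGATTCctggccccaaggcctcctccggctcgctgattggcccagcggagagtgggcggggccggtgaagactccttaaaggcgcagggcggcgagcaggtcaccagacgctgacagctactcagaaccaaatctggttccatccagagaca
Hspe1: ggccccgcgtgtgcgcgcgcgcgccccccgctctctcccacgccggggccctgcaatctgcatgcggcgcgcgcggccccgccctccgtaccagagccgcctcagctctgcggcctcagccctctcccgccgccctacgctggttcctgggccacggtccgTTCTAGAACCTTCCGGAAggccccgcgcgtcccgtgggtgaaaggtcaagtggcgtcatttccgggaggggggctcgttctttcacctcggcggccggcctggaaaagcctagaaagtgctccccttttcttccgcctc
Hspb1: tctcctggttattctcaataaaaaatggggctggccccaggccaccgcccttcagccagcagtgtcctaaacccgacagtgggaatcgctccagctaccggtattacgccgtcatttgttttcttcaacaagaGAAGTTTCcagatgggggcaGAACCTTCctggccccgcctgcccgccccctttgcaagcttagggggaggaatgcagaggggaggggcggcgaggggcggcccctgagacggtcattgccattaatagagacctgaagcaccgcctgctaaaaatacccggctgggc
Hsph1: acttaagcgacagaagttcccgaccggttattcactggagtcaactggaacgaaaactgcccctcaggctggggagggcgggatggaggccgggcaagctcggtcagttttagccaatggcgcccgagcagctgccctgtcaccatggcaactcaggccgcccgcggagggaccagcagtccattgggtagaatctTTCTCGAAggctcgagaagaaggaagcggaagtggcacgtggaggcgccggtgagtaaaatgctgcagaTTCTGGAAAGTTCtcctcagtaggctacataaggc

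Of the 10 genes, 8 had windows in the table, 11 in all; Hspa8 and Hsp90aa1 had none there. A core was found for 7 of these 8 genes, against 15.1% of all 32851 windows and 17.0% of 27025 genes. An extended element was found for 3 of them, Hsph1, Hspd1 and Hspe1, against 0.603% of all windows and 0.662% of genes. Hspa1a and Hspa1b had windows identical at 296 of 300 bases, each with the core GAAGATTC beginning 104 bases before the start. Hspd1 and Hspe1 are neighbours read in opposite directions, and their windows shared 285 bases. The capitals in the Hspe1 window, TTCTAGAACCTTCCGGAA, lie in that shared stretch and begin 89 bases before the start of Hspe1. Hspb1 had 2 separate cores, beginning 117 and 97 bases before its start. Hsph1 had 1 core 54 bases before and the extended match TTCTGGAAAGTTC 15 bases after its start. Bag3 had the core GAAGTTTC beginning 42 bases after its start. Dnajb1 had no match in either of its windows, which says only that these letters are not in these 300 bases.

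The libraries held between 14853084 and 25726455 reads assigned to genes, and the deposited values are read counts divided by 1 factor per library, called normalised read counts here. Of the 9 macrophage markers looked for, 8 were found and none was at 0 in any library, with sums between 392882 on day 7 and 1348670 on day 4, most of it the lysozyme gene Lyz2. Acinar markers summed to 42668, 76522, 25730, 23178 and 581319 on days 1, 3, 4, 5 and 7, against 496651 in mock, so the mock and day 7 libraries carried the most acinar RNA. Fibroblast markers were highest on day 3, at 15605, against 3037 in mock. In bulk samples like these, fewer cells of a type and less RNA per cell cannot be told apart. The sources used here do not say how reads shared by near-identical genes were counted. Of the 50-base words of the Hspa1a transcript 58.8% also occur in Hspa1b, so the split between these genes is uncertain and their sum is given too. Between 44.8% and 74.8% of the words of Hspa8, Hsp90aa1, Hspb1, Hspd1 and Hspe1 occur in other genes, mostly processed pseudogenes. The rows of those other genes held at most 271 normalised read counts in sum in any library. Hsph1 and Bag3 shared no such word.

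None of the 10 genes was at least 2-fold higher than in mock on any of the 5 days, while between 1 and 6 were at least 2-fold lower. Ratios are given as log2 of day over mock with a pseudocount of 17.8, which understates changes of low genes. Brackets hold a 95% Clopper-Pearson interval computed from recovered reads, which covers counting error only. The interval is of the ratio without the pseudocount, so it is not centred on the printed ratio. For Hspb1 on day 1 the ratio is -2.87 with the pseudocount and -2.98 without it. On day 1, 3 of the 10 were at least 2-fold lower, Hspa1a, Hspa1b and Hspb1, against 9.58% of all expressed genes lower and 6.68% higher. On day 3, Hspa1a and Hspa1b were 2-fold lower, 2 of 10, against 5.71% of expressed genes lower and 3.73% higher. The HSP70 pair was thus low on both of these days. On day 4, Hspa1a, Hspa1b, Hsph1 and Hspb1 were 2-fold lower, 4 of 10, against 8.11% lower and 3.31% higher. On day 5 only Hspb1 was, 1 of 10, against 6.4% lower and 3.68% higher, which is near the background. On day 7, 6 of 10 were 2-fold lower, Hsph1, Hsp90aa1, Dnajb1, Hspb1, Hspe1 and Bag3, against 6.57% lower and 1.96% higher. The median log2 ratio of the 10 genes was -0.14, -0.37, -0.75, -0.34 and -1.04 on days 1, 3, 4, 5 and 7, beside 0.15, 0.08, -0.01, 0.12 and -0.11 for all expressed genes.

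**Figure D1:**
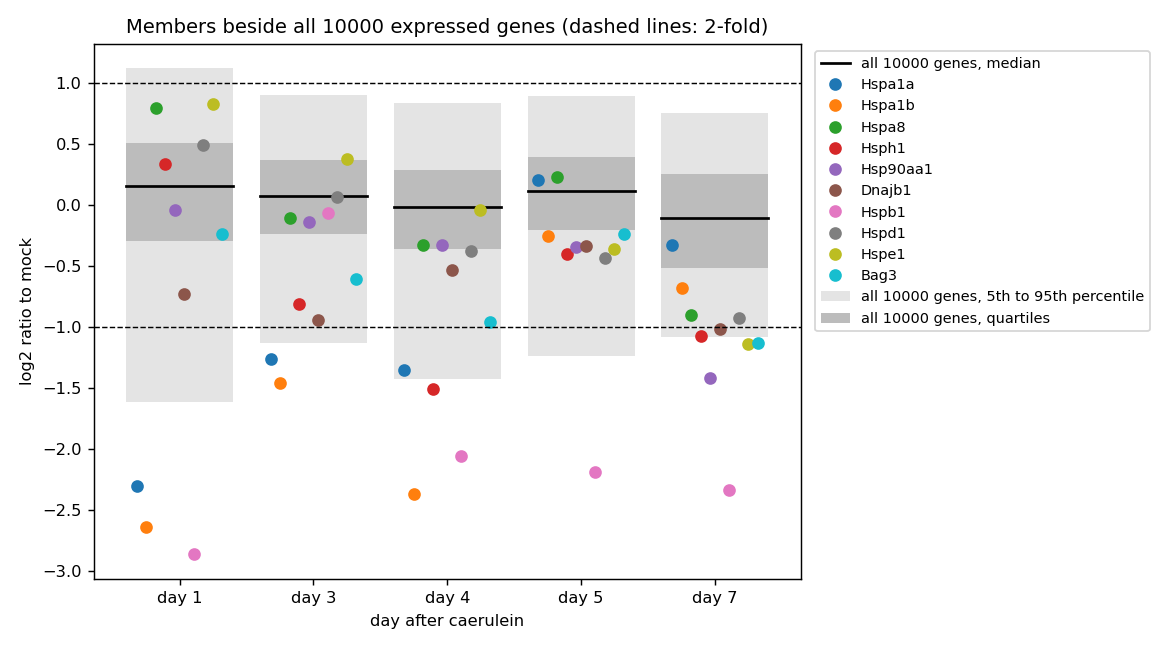
Log2 ratio to mock (vertical axis) of each of the 10 genes (coloured points) on each day after caerulein (horizontal axis), over the quartiles (dark grey), the 5th to 95th percentiles (light grey) and the median (black line) of all 10000 expressed genes; 1 library per day. On day 7 all 10 points lie below the median of all genes, -0.11, on the deposited scale, and on day 1 Hspa1a, Hspa1b and Hspb1 lie apart from the other 7.

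The scale on which libraries are compared moves these counts. On day 7, 196 expressed genes were 2-fold higher and 657 lower than in mock as deposited, but 562 were higher and 296 lower once all libraries had equal totals, a shift of 0.27 in the median log2 ratio of all genes. Only Hspb1 and Hsp90aa1 of the 6 genes stayed 2-fold lower on day 7 under every scaling and pseudocount tried; Hsph1, Dnajb1, Hspe1 and Bag3 lay between -1.20 and -0.66. After removal of acinar, erythroid and mitochondrial genes, again at equal totals, the splits of higher and lower genes were 348 and 1355 on day 1, where 668 and 958 were as deposited. For day 3 they were 265 and 687, where 373 and 571 were as deposited. For day 4 they were 192 and 1081, where 331 and 811 were as deposited. For day 5 they were 212 and 783, where 368 and 640 were as deposited. Under the 5 other scalings the number of the 10 genes 2-fold lower than in mock was 3 or 4 on day 1, 3 on day 3, where Dnajb1 joined the HSP70 pair, and 4 or 5 on day 4. The direction of no 2-fold difference of these 10 genes changed under any of the 7 alternatives, but 11 of the smaller differences changed sign in at least 1.

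Between consecutive days the 10 genes did not keep 1 direction. From day 1 to day 3, Hspa1a, Hspa1b and Hspb1 were 2-fold higher on day 3, 3 of 10, against 9.72% of expressed genes higher, and Hsph1 was 2-fold lower, 1 of 10, against 8.21% lower. On day 4 Hspb1 alone was 2-fold lower than on day 3, against 5.89% of expressed genes lower and 3.23% higher. On day 5 Hspa1a, Hspa1b and Hsph1 were 2-fold higher than on day 4, 3 of 10, against 5.4% higher and 3.11% lower. On day 7 Hspa8 and Hsp90aa1 were 2-fold lower than on day 5, 2 of 10, against 4.68% lower and 5.07% higher, but 0 of 10 were under each of the 5 other scalings. The 2-fold splits of all genes moved with the scaling here too: centring on the median expressed gene gave 448 higher and 487 lower on day 4 against day 3, where 323 and 589 were as deposited, and 356 and 536 on day 5 against day 4, where 540 and 311 were as deposited. For day 7 against day 5, equal totals gave 838 and 145, where 507 and 468 were as deposited.

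Mock held the highest value of 5 of the 10 genes, Hspa1b, Hsp90aa1, Dnajb1, Hspb1 and Bag3, while 4.89% of expressed genes were highest in mock. The same 5 were highest in mock under all 7 alternatives. For Hsp90aa1 and Hspb1, however, mock did not differ beyond counting error from the next library, day 1 and day 3. Day 1 was highest for 4, Hspa8, Hsph1, Hspd1 and Hspe1, beside 30.1% of expressed genes. Day 7 was lowest for 6 of 10, beside 34.7% of expressed genes, and for 4 of 10 with equal totals, beside 15.2%. Together the 10 genes took 0.408%, 0.332%, 0.257%, 0.480% and 0.377% of the reads on days 1, 3, 4, 5 and 7, against 0.535% in mock. Most of these reads came from Hspa8, Hspa1a and Hspa1b, so the shares mainly follow these genes. On day 1 Hspa8 was at its highest and Hspa1a and Hspa1b at their lowest.

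**Figure D2:**
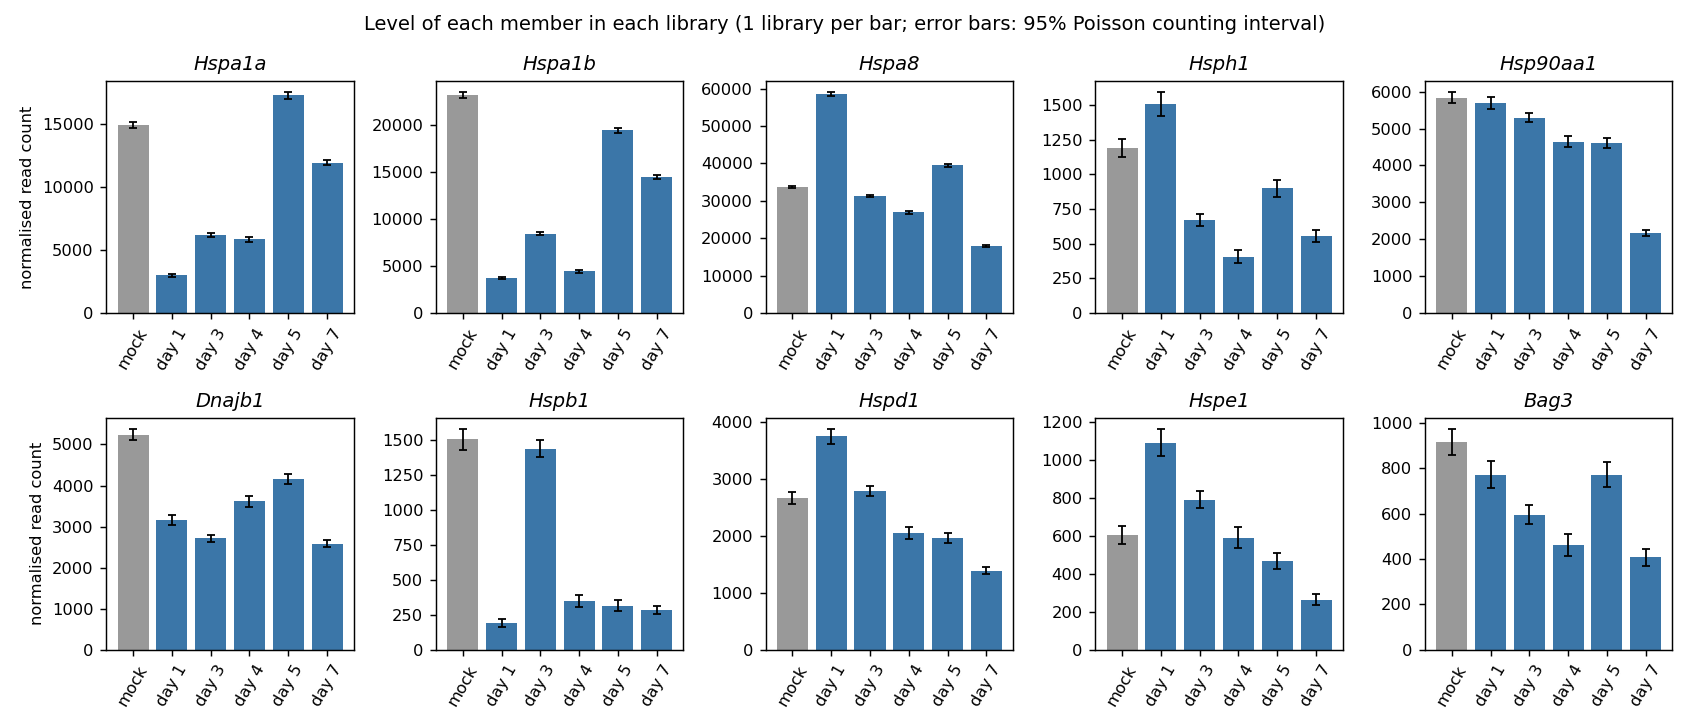
Normalised read count (vertical axes, from 0, a scale for each gene) of the 10 genes in mock (grey) and on days 1, 3, 4, 5 and 7 after caerulein (blue); 1 library per bar, error bars are 95% Poisson counting intervals. Hspa1a and Hspa1b are lowest on day 1 and high in mock and on day 5, Hspb1 is high in mock and on day 3 alone, and Hspd1 and Hspe1 step down after day 1.

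Hspa1a and Hspa1b, the stress-inducible HSP70 genes that encode nearly the same protein, had the widest ranges of the 3 HSP70 genes, 5.74-fold and 6.25-fold. Hspa1a (ENSMUSG00000091971) had 14978 normalised read counts in mock and 3014, 6219, 5859, 17312 and 11955 on days 1, 3, 4, 5 and 7. Hspa1b (ENSMUSG00000090877) had 23175 in mock, then 3707, 8417, 4456, 19392 and 14426. Days 1, 3 and 4 were thus the 3 lowest libraries of both genes, and mock and day 5 the highest. On day 1 Hspa1a was 4.95-fold lower than in mock (log2 ratio -2.31, -2.38 to -2.25), and only 2.17% of expressed genes had a lower ratio. On day 1 Hspa1b was 6.23-fold lower (-2.64, -2.70 to -2.59), with 1.33% of expressed genes below it. Neither gene was 2-fold from mock on day 5, where Hspa1a had a ratio of 0.21 and Hspa1b of -0.26. On day 7 the ratio of Hspa1a was -0.32 as deposited and 0.35 under quantile normalisation, the 1 alternative that turned its sign.

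The pair parted on day 4. Hspa1b was 5.18-fold lower than in mock on day 4 and Hspa1a 2.55-fold lower. Hspa1b over Hspa1a was 1.23, 1.35, 0.761, 1.12 and 1.21 on days 1, 3, 4, 5 and 7, against 1.55 in mock, so day 4 was the only library in which this ratio was below 1. Because reads of these genes may have been exchanged, the ratio between them is uncertain, while an exchange between them leaves their sum as it was. The sum was 6720, 14636, 10315, 36705 and 26381 normalised read counts on days 1, 3, 4, 5 and 7, against 38153 in mock, with log2 ratios of -2.50, -1.38, -1.89, -0.06 and -0.53. From day 4 to day 5 the sum was higher by 1.83 on the log2 scale. In that step Hspa1b had a ratio of 2.12, with 0.94% of expressed genes above it. Hspa1a had 1.56, with 1.92% above it, and the sum itself was not ranked. Acinar marker sums, given above, also differed between these libraries, and their part in the result was not tested.

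Dnajb1, Bag3 and Hsph1 act on HSP70 itself, and of the 3 the courses of Dnajb1 and Hsph1 differed most. Dnajb1 (ENSMUSG00000005483), the main J-domain partner of the inducible HSP70, had 5242 normalised read counts in mock and 3153, 2712, 3618, 4161 and 2583 on days 1, 3, 4, 5 and 7. Every day after caerulein lay below mock, and the range from highest to lowest library was 2.03-fold. On day 7 its log2 ratio to mock was -1.02 (-1.09 to -0.96), at the 2-fold line, and between -1.02 and -0.66 over the alternatives, 1 of which kept it past 2-fold. On day 3 the ratio was -0.95 as deposited and between -1.09 and -0.91 over the alternatives, past 2-fold in 5 of 7. Its lowest library, day 7 as deposited, was day 3 under 4 scalings and day 1 under quantile normalisation. Bag3 (ENSMUSG00000030847), an exchange factor that links HSP70 to small heat shock proteins and to selective autophagy, had 915 in mock, then 772, 596, 461, 772 and 407. Days 1 and 5 could not be told apart for Bag3 by counting error, nor could days 4 and 7, and all 5 days lay below mock. On day 7 the ratio of Bag3 was -1.13 (-1.33 to -1.01).

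Hsph1 (ENSMUSG00000029657), the HSP110 exchange factor and disaggregase partner, had 1191 in mock and 1508, 671, 406, 900 and 557 on days 1, 3, 4, 5 and 7. Day 1 was its highest library and day 4 its lowest, and the log2 ratio on day 4 was -1.51 (-1.73 to -1.37). Hsph1 thus stood above mock on day 1, with a ratio of 0.34 (0.23 to 0.46), in the library where the HSP70 pair was lowest. On day 5 it was 2.16-fold higher than on day 4, in the same step as Hspa1a and Hspa1b, but was under 2-fold in that step under some of the alternatives.

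Hspa8 and Hsp90aa1 are the abundant cytosolic chaperones of the set. Hspa8 (ENSMUSG00000015656) encodes HSC70, the HSP70 that is made without stress and that also uncoats clathrin vesicles and serves chaperone-mediated autophagy. It had 33737 normalised read counts in mock and 58534, 31302, 26941, 39562 and 18004 on days 1, 3, 4, 5 and 7. Day 1 was the high library and day 7 the low one, a range of 3.25-fold, and no neighbours in the order of its 6 libraries were closer than counting error. Its log2 ratio was 0.79 (0.78 to 0.81) on day 1 and -0.91 (-0.93 to -0.88) on day 7. On day 7 it was 2.20-fold lower than on day 5, a difference that lay between -1.14 and -0.64 over the alternatives.

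Hsp90aa1 (ENSMUSG00000021270), the inducible cytosolic HSP90, which matures kinases and steroid receptors, stayed near mock until day 5. It had 5839 in mock and 5678, 5291, 4644, 4599 and 2175 on days 1, 3, 4, 5 and 7. Mock and day 1 did not differ beyond counting error, nor did days 4 and 5, and day 7 stood apart below them. On day 7 the ratio to mock was -1.42 (-1.49 to -1.36), and 1.98% of expressed genes had a lower one. Hsp90aa1 was 2-fold lower than in mock on day 7 under all 7 alternatives, between -1.42 and -1.09, whereas its difference between day 7 and day 5 lay between -1.08 and -0.59. The day 7 library also had the most acinar RNA and the lowest macrophage marker sum, 392882 against 750267 in mock. Most of that contrast was Lyz2, at 317968 on day 7 against 670810 in mock. Of the other macrophage markers, Ptprc was at 11553 against 11870, and Csf1r alone was higher on day 7, at 36504 against 23532. The part of acinar RNA or of macrophage content in the result was not tested.

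**Figure D3:**
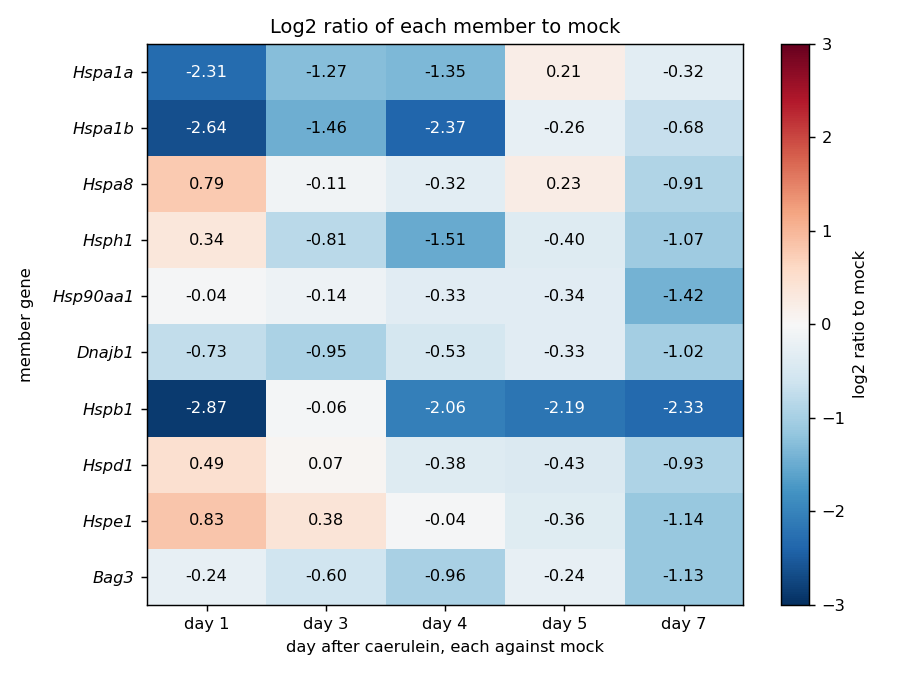
Log2 ratio to mock (colour and printed value) of each of the 10 genes (rows) on days 1, 3, 4, 5 and 7 after caerulein (columns), 1 library per day. Hspa1a and Hspa1b are blue from day 1 to day 4, Hspb1 on every day but day 3, and the day 7 column is below 0 in all rows on the deposited scale, although Hspa1a was at 0.35 there under quantile normalisation.

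Hspd1 and Hspe1 encode HSP60 and HSP10, the chamber and the lid of the mitochondrial chaperonin, and lie head to head over the promoter stretch printed above. Hspd1 (ENSMUSG00000025980) had 2663 normalised read counts in mock and 3747, 2792, 2050, 1970 and 1393 on days 1, 3, 4, 5 and 7. Hspe1 (ENSMUSG00000073676) had 604 in mock, then 1089, 790, 587, 466 and 264. Both were highest on day 1, and each later library lay below the one before it, although days 4 and 5 of Hspd1 did not differ beyond counting error. The day 1 log2 ratios were 0.49 (0.42 to 0.57) for Hspd1 and 0.83 (0.70 to 1.00) for Hspe1. On day 7 they were -0.93 (-1.02 to -0.85) for Hspd1 and -1.14 for Hspe1, with a counting interval that reached up to the 2-fold line. Hspd1 over Hspe1 was 3.44, 3.54, 3.49, 4.23 and 5.29 on days 1, 3, 4, 5 and 7, against 4.41 in mock.

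Hspb1, the small heat shock protein HSP25 of the mouse, holds unfolded proteins in solution and acts on actin filaments. Hspb1 (ENSMUSG00000004951) had 1503 normalised read counts in mock and 191, 1437, 348, 315 and 284 on days 1, 3, 4, 5 and 7. It was the member with the widest range, 7.88-fold between mock and day 1, and 6.38% of expressed genes had a wider one. Mock and day 3 did not differ beyond counting error (log2 ratio -0.06, -0.16 to 0.03), and the other 4 libraries lay at 348 or below. The log2 ratio was -2.87 (-3.23 to -2.74) on day 1. Days 4, 5 and 7 had ratios of -2.06 (-2.30 to -1.92), -2.19 (-2.44 to -2.08) and -2.33 (-2.58 to -2.23). On day 7, 0.39% of expressed genes had a lower ratio than Hspb1. Day 3 was 6.98-fold above day 1.

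Markers of other cells also differed between these libraries, some in step with Hspb1 and some not. Fibroblast markers summed to 495, 15605, 788, 2023 and 8313 on days 1, 3, 4, 5 and 7, against 3037 in mock. Erythroid markers summed to 114, 3492, 316, 29.1 and 1171 on those days, against 1632 in mock. Both sums were high on day 3 and low on days 1 and 4, as Hspb1 was, while on day 7, where Hspb1 was low, the fibroblast sum was above mock and the erythroid sum below it. Duct markers summed to 1104, 3560, 582, 186 and 1006, against 538 in mock, and endothelial markers to 1504, 195, 162, 310 and 468, against 366 in mock. The endothelial sum of day 1 was mostly Kdr, at 1320 against 91.7 in mock. Cdh5 was also higher on day 1 than in mock, while Pecam1 and Tek were lower. Of 18 genes of dividing cells, 16, 17, 15 and 9 were 2-fold lower on days 1, 4, 5 and 7 than in mock, with medians of -2.33, -1.91, -1.73 and -1.03, while day 3 had 12 that were 2-fold higher and a median of 1.42; the count of 9 on day 7 was 5 to 10 under other scalings. Their part in the level of Hspb1 was not tested.

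**Figure D4:**
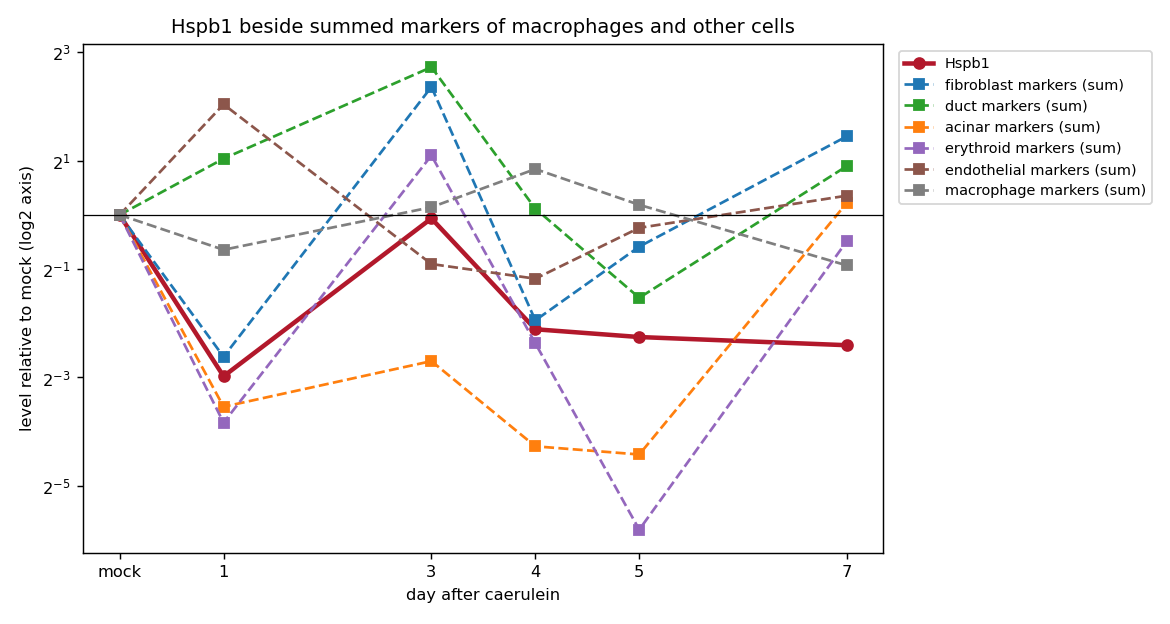
Level relative to mock (log2 axis) of Hspb1 and of the summed markers of fibroblasts, duct, acinar, erythroid and endothelial cells and macrophages in mock and on days 1, 3, 4, 5 and 7 after caerulein, 1 library per day. Hspb1 and the fibroblast and erythroid sums are low on day 1. On day 3 Hspb1 is near mock and both sums are above mock. Duct and endothelial sums are above mock on day 1, and acinar and endothelial sums are below it on day 3. On day 7 Hspb1 has 284 normalised read counts against 1503 in mock, while the fibroblast sum is above mock and the erythroid sum below it.

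Per kilobase of exon, from GENCODE M21 gene models, the order of the 10 genes by mean level over the 6 libraries was Hspa8 with 8063 normalised read counts per kilobase, Hspa1b with 4375, Hspa1a with 3333, Hsp90aa1 with 1197, Dnajb1 with 1117, Hspd1 with 922, Hspb1 with 659, Hspe1 with 430, Bag3 with 255 and Hsph1 with 120. On day 1 Hspa8 had 13609 per kilobase and Hspa1b 1322, against 7844 and 8268 in mock. The length was that of all annotated exons of a gene merged, 4301 bases for Hspa8 and 2803 for Hspa1b. The Hspa8 transcript searched for shared words had only 2394 bases, and that of Hspa1b 2803. The closeness of the 2 genes in mock therefore holds for the merged exons only, and the order above may also depend on the length used. On day 1 Hspa8 was far above Hspa1b with either length.

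The other chaperone genes, their regulators and 2 lists for comparison, 12 lists in all, were read in the same way. On day 1, 8 of 15 genes of endoplasmic reticulum folding and the unfolded protein response were 2-fold higher than in mock and none was lower (median 1.04), against 6.68% of all expressed genes higher, led by Creld2 at 1.71, Ddit3 at 1.57, Manf at 1.46 and Hyou1 at 1.23. Under the 5 other scalings 3 to 6 of the 15 were 2-fold higher. Of 12 expressed HSP90 partner genes, 3 were 2-fold higher on day 1, Fkbp5 at 1.33, Chordc1 at 1.28 and Ahsa1, the activator of the HSP90 ATPase, at 1.17 (median 0.59), and 1 to 3 were under other scalings. All 14 genes of TRiC, the cytosolic chaperonin for actin and tubulin, and of its partner prefoldin lay above mock on day 1 with none past 2-fold (median 0.56); with other scalings 12 to 14 did. Of 15 J-domain genes 1 was 2-fold lower, Dnajb4 at -1.19 (median 0.39). The 14 other mitochondrial chaperones and proteases had a median of 0.31 with none past 2-fold. The 7 BAG and ubiquitin ligase partners of HSP70 had a median of 0.34 with none past 2-fold. The medians of the HSP90 partner, TRiC and endoplasmic reticulum lists stayed above 0 on day 1 under each scaling, at 0.23 or more. The 5 other HSP70 and HSP110 genes had a median of 0.08, which was below 0 with other scalings.

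On day 4 the medians of the endoplasmic reticulum, HSP90 partner and TRiC lists lay below mock, but not those of all lists. The J-domain list had a median of 0.08 and the BAG list of 0.02, and both changed sign under other scalings. Other genes known to be raised by heat had a median of 0.28 on day 4. The other HSP70 and HSP110 genes had -0.30, and the other mitochondrial chaperones and proteases -0.07. The endoplasmic reticulum list had 3 of 15 genes 2-fold lower and none higher (median -0.72), Hyou1 at -1.12, Sdf2l1 at -1.11 and Calr at -1.02, against 8.11% of expressed genes lower. Under other scalings 2 to 7 of the 15 were 2-fold lower. HSP90 partners had 2 of 12 lower, Hsp90ab1, the constitutive HSP90, at -1.06 and the HSP70 to HSP90 adaptor Stip1 at -1.05 (median -0.36), and 0 to 2 were under other scalings. TRiC and prefoldin had a median of -0.33 with none past 2-fold. On day 7 the endoplasmic reticulum list had 7 of 15 genes 2-fold lower (median -0.83), against 6.57% of expressed genes, with Sdf2l1 at -1.62, Manf at -1.61, Hspa5 at -1.39 and Calr at -1.37. Under other scalings 2 to 6 of the 15 were 2-fold lower. All 14 TRiC and prefoldin genes lay below mock on day 7, under each scaling too, with 1 past 2-fold as deposited and 0 or 1 under the other scalings (median -0.69). J-domain genes had 2 of 15 lower on day 7, Dnajb4 at -1.51 and Dnaja1 at -1.04 (median -0.43), and 1 under each other scaling. Of 12 HSP90 partners 1 was lower, Hsp90ab1 at -1.07 (median -0.47), and 0 under each other scaling. These medians stand beside -0.11 for all expressed genes on day 7.

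The heat shock factor genes stayed within 2-fold of mock. Hsf1 had 663 normalised read counts in mock and 881, 459, 549, 888 and 956 on days 1, 3, 4, 5 and 7, so it was above mock on day 1, when the HSP70 pair was lowest. None of the 3 expressed genes of that list, Hsf1, Hsbp1 and Ier5, was 2-fold from mock on any day, and Hsf2 and Hsf4 were not among the expressed genes. Of 7 other genes known to be raised by heat, 1 was 2-fold lower on day 1, Serpinh1 at -1.02 (median -0.05). On day 7 Atf3, at -1.76, and Hmox1, at -1.43, were 2-fold lower, and Serpinh1, which encodes the collagen chaperone HSP47, was higher at 1.18 (median -0.54). Serpinh1 was also higher on day 3, at 2.80, in the library with the highest fibroblast marker sum.

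Immediate early genes, transcription factors and feedback genes that many stimuli raise within minutes and that are also raised by tissue digestion, showed another order of days. Of 16, 4 were 2-fold lower on day 1 than in mock (median -0.34), Egr1 at -2.18, Fosb at -1.31, Klf4 at -1.12 and Socs3 at -1.08, against 9.58% of expressed genes lower. Under other scalings 5 or 6 were lower. On day 3, 2 were lower, Klf2 at -1.63 and Egr1 at -1.49 (median -0.56), against 5.71% of expressed genes, and 2 to 5 were under other scalings. On day 4 1 was higher, Btg2 at 1.17, and none lower (median 0.36), with 0 to 2 higher under other scalings, although the sum of Hspa1a and Hspa1b was at -1.89 in that library. On day 5 1 was higher, Jun at 1.09 (median 0.47), with 0 or 1 under other scalings, while the sum was at -0.06. Egr1 had 28392 normalised read counts in mock and 6231, 10095, 30803, 39950 and 20375 on days 1, 3, 4, 5 and 7. On day 4 the list median was thus above mock and the HSP70 sum below it. On day 1 both were below mock, but 3 of 16 genes, Fos at 0.40, Dusp1 at 0.14 and Btg2 at 0.08, lay above it. Under the 5 other scalings 1 or 2 of the 16 did. On days 3 and 7 both were also below mock as deposited. The list medians were -0.56 and -0.39 there, and the sums -1.38 and -0.53. As deposited the list median was lowest on day 3. A part of tissue handling in either was not tested.

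**Figure D5:**
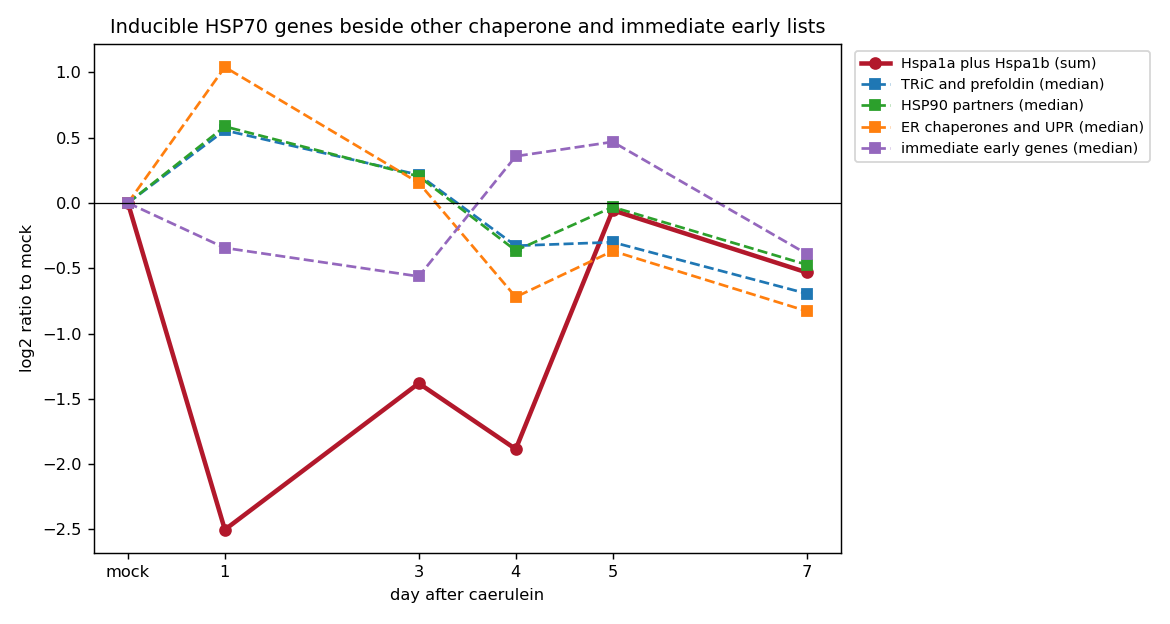
Log2 ratio to mock (vertical axis) of the sum of Hspa1a and Hspa1b and of the median of 4 gene lists in mock and on days 1, 3, 4, 5 and 7 after caerulein (horizontal axis), 1 library per day. On day 1 the HSP70 sum is at -2.50 while the endoplasmic reticulum list is at 1.04, and on day 4 the immediate early list is at 0.36 while the sum is at -1.89.

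Likeness was measured as the root mean square difference of log2 profiles over the 6 libraries, each centred on its own mean. The closest pair of the 10 genes was Hspd1 and Hspe1 at 0.209, followed by Hsp90aa1 and Hspd1 at 0.250 and Hspa8 and Hspd1 at 0.271. Hspa1a and Hspa1b were 0.316 apart. Hspa1b and Hspe1 were the farthest apart at 1.46. Among 9534 expressed genes searched, no gene lay within 0.3 of Hspa1a, Hspa1b or Hspb1, while 1337 lay within 0.3 of Hspd1, 733 of Hspe1, 669 of Hsp90aa1, 596 of Hspa8, 258 of Bag3, 209 of Dnajb1 and 32 of Hsph1. Profiles with a wide spread have fewer neighbours on this measure by its construction, and Hspa1a, Hspa1b and Hspb1 had the widest, with SDs over the 6 libraries between 0.88 and 1.13 in log2, beside 0.35 to 0.63 for the other 7. The nearest to Hspa1a were Tpbgl at 0.349 and Pde3b at 0.352. For Hspa1b they were Smpdl3b at 0.455 and Kank2 at 0.481, and for Hspb1 Dscc1 at 0.427 and Cenpn at 0.438. Hspe1 was nearest to the mitochondrial ribosomal protein genes Mrpl32 at 0.0616 and Mrpl21 at 0.0658, and Hspd1 to Nufip1 at 0.0567 and Katna1 at 0.0629. These 4 distances were all below 0.07. Hsp90aa1 was nearest to Nfkbib at 0.0850 and Mapk6 at 0.0993, and Hspa8 to Psme1, a proteasome activator subunit, at 0.0990 and Capza2 at 0.109. Dnajb1 was nearest to Birc3 at 0.154 and Fam69a at 0.171, Bag3 to Sfxn2 at 0.0933 and Pepd at 0.138, and Hsph1 to Tnfrsf14 at 0.0993 and Ticam1 at 0.206. With 6 libraries, 1 per day, these values describe the profiles only.

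A count test is possible only if the 5 days after caerulein are taken as replicates of 1 condition, which they are not in the design. In edgeR's quasi-likelihood test of the 5 caerulein libraries against the mock library, chosen after the data were seen, 0% of 14106 genes passed an adjusted p of 0.05 in either direction, so 0 of the 10 genes did. The test counts change between the 5 days as spread within 1 condition and has 1 mock library. A lack of calls therefore does not show that a gene was unchanged on any day. Without the day 3 library, where Hspb1 was near mock, the fitted log2 difference of Hspb1 was -2.41, beside -1.58 with all 5 days. DESeq2 called 1 gene higher and 1 lower, and none of the 10. The largest fitted log2 differences among the 10 were -1.58 for Hspb1, -1.23 for Hspa1b, -0.78 for Hspa1a and -0.72 for Dnajb1, with an adjusted p of 1 in edgeR's quasi-likelihood test.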

How the data were processed

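RNA-seq libraries of sorted pancreatic macrophages, 1 per day, were made from total RNA with an Illumina RNA library kit, per the labels' protocols. The deposited values are a signal per gene: read counts that the authors scaled by a single factor for each library. Undoing that factor made 100% of values whole reads, within a tolerance of 0.01 reads, in all 6 libraries. The submitters' processing notes list Bowtie 0.12.2 and the build mm8, with no step given for either. The sources used here do not give the counter, the annotation or the use of strand.

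Groups were taken from the sample titles. Each day was set against mock and against the day sampled before it, 9 comparisons. Log2 ratios used a pseudocount of 17.8, scaled to the mean column total. Genes were called at 2-fold among the 10000 with the highest mean (lowest mean 74.1). Intervals came from recovered reads without the pseudocount. A limit of 3 reads corresponded to 2.11 to 3.88 normalised read counts. The members, gene lists, naming rule and comparisons were chosen with earlier results of these data known. The rule named, of each list, up to 4 genes with the largest ratio, and for each member the 2 genes nearest in profile. Predicted genes, small RNAs and receptor segments were left out of that search.

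Other scalings, pseudocounts and filters were tried, and the sum of Hspa1a and Hspa1b. Added after the data were seen were a count test on recovered reads, with genes of at least 60 reads, in edgeR 4.0.16 and DESeq2 1.42.0 under R 4.3.3, and the highest and lowest library of each member under each setting. The scripts used Python 3.11.15, numpy 2.4.6, pandas 2.3.3 and scipy 1.17.1 and were tested on simulated data. Promoter windows are RefSeq's on GRCm38.p6. That build is not mm8, so no coordinate was joined to the deposited values other than by gene symbol. Reads carry no molecular identifiers, so intervals and floors cover counting error and not the variation between pools of mice.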

Additional observations from a re-analysis of the deposited data

How the results depend on the processing

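Of 26 differences of the 10 genes past 2-fold, over 9 comparisons, 18 stayed past it under all 7 alternatives and 8 did not in at least 1; no direction of these changed, and among the 64 smaller differences 60 stayed under 2-fold in all and 11 changed sign in at least 1. The number of genes 2-fold lower than in mock on day 7, 6 as deposited, was 2 with equal totals, 2 at equal totals without acinar, erythroid and mitochondrial genes, and 2 with a 10 times larger pseudocount. For day 7 against day 5, 2 were lower as deposited and 0 with equal totals, median centring, TMM factors, quantile normalisation, or equal totals without those genes. For day 3 against day 1, 1 was lower as deposited and 0 with quantile normalisation or a 10 times larger pseudocount. For day 4 against day 3, 1 was lower as deposited and 2 at equal totals without those genes. Against mock, 2 were lower on day 3, 1 with Hspa1a and Hspa1b summed and 3 under each other scaling, while day 1 had 3, and 2 to 4 under the alternatives, and day 4 had 4, and 3 to 5. The cause was not tested beyond the construction of each alternative. Over all genes with reads in place of the expressed ones, 7.24%, 4.35%, 5.10%, 4.66% and 3.76% of genes were 2-fold higher or lower than in mock on days 1, 3, 4, 5 and 7. The count test was also run in DESeq2 and with each caerulein library left out in turn, always against the 1 mock library. Without day 3, where Hspb1 was near mock, the fitted log2 difference of Hspb1 moved from -1.58 to -2.41. No paired analysis was possible because each group has 1 sample, so groups share fewer than 2 replicate numbers. The lowest value of the 10 genes was 191 normalised read counts, well over the limit of 3 reads, and no setting here can show the variation between pools.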

Other observations

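Small heat shock protein genes other than Hspb1 were scarce in these libraries. Of the 9 looked for, 8 were found and 2 were among the expressed genes, Cryab and Hspb11. Hspb11 has a symbol of this family, which alone does not make it a small heat shock protein gene. Cryab, the alpha B crystallin that holds unfolded proteins as Hspb1 does, had 162 normalised read counts in mock and 116, 161, 199, 151 and 128 on days 1, 3, 4, 5 and 7, none 2-fold from mock. Cryaa, the lens crystallin, was not among the expressed genes and had 16, 6.34, 2.59, 1.04 and 5.07 on those days, against 170 in mock. Hspb11 was 2-fold lower than in mock on day 7, at a log2 ratio of -1.14, a call that was lost under some of the other scalings.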
